A study of Homo sapiens with 124 samples.

Results

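Chromosome 6 was followed along both arms in single human cells, bin by bin, for its contacts with the nuclear lamina. The members were the rows of the deposited table of observed over expected ratios that lie on chromosome 6 (100 kb bins, human genome build hg19), hold a number in every cell and are above 0 in at least 1 cell. Of 1712 chromosome 6 bins in the table, 1680 held numbers, 3 of these were at 0 in every cell, and 1677 were kept, which is 6.35% of the 26426 usable bins of the genome. They cover 167.7 Mb. The longest stretch without numbers, chr6:58800001-61800000 (3 Mb, the centromere gap), divided them into 586 bins of the short arm, 6p (58.6 Mb, from base 100001 to base 58800000), and 1091 bins of the long arm, 6q (109.1 Mb, from base 61800001 to base 171000000). At the edge of the rule, chr6:32500001-32600000 was kept with reads in 3 cells and a highest ratio of 0.308. The bins starting at 26800001, 95700001 and 171000001 had no reads in any cell and were left out.

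The series holds 1 group. Its cells are KBM7, an established human chronic myeloid leukaemia line with a haploid karyotype (labelled 1N), of clone 14, carrying Dam, a bacterial adenine methyltransferase, fused to LaminB1. Methylation was induced for 15 h with 0.5 nM Shield1, a small molecule that stabilises a destabilised fusion protein, and the smallest 2% of cells positive for both Fucci cell-cycle markers were sorted singly and amplified. Samples numbered 1 to 124 are labelled, and 118 of them had a column in the table (numbers 33, 34, 44, 86, 95 and 120 had none). The labels name 1 clone and no separate cultures, plates or days, so the cells are not replicates of a condition. Values below are means ± SD over cells or counts of cells, and no test was made.

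The lamina is a meshwork of lamins under the inner nuclear membrane. Long, gene-poor and mostly silent parts of the genome, the lamina-associated domains, touch it, while gene-rich active regions tend to lie further inside. A Dam-LaminB1 fusion methylates GATC sites close to the lamina, and DpnI, which cuts methylated GATC, frees those sites for amplification. The mark is kept on the DNA, so a bin can carry signal from any time since induction. In a haploid cell the signal of a locus comes from a single homologue. Chromosome 6 joins a short arm that holds the major histone gene cluster and the major histocompatibility complex (MHC) to a long arm with wide gene-poor regions.

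A ratio of 1 is the level expected for the bin, and a bin at a ratio of at least 1 was called in contact. The share of a cell's bins in contact is its contact share, and the percentage of the 118 cells in which a bin is in contact is its contact frequency. The ratios came out as whole multiples of 1 read, which gave 28372 to 385661 reads per cell (median 135782). On chromosome 6 there were 1233 to 27040.0 reads per cell (9742 ± 4561). A ratio of 1 in the median chromosome 6 bin stood for 1.17 to 15.9 reads (median 5.63), and for under 3 reads in 14 cells. Ratios from 0.9 to under 1 made up 1.73% of chromosome 6 values and ratios from 1 to under 1.1 made up 1.63%. No pair of cells among 6903 had identical columns. Cells numbered 96 to 124 (28 cells) stood apart from cells 1 to 94 (90 cells): chromosome 6 bins without reads averaged 23.4% in the former and 45.0% in the latter, and the contact share of all other chromosomes was 36.3% ± 3.37 against 31.6% ± 5.47. The split was seen in the data and is no batch named in the labels, so values are also given for both sets where they differ. What causes it was not tested.

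In the average cell, 37.4% ± 8.11 of chromosome 6 was in contact with the lamina. Cell 61 was lowest at 11.4%, the median was 38.2% and cell 77 was highest at 55.6%. The other chromosomes together had 32.7% ± 5.43. Within a cell, chromosome 6 exceeded the other chromosomes by 4.67 ± 5.55 percentage points, and it was higher in 96 of 118 cells (by 4.99 points in cells 1 to 94, 3.65 in cells 96 to 124). Chromosome 8 had no usable bins, so it is neither in the values of the other chromosomes nor in the order that follows. Among the 22 sequences with usable bins, some of them rearranged, chromosome 6 ranked number 7. It lay between chromosome 11 at 37.7% ± 8.90 and chromosome 3 at 37.3% ± 7.14. These neighbours in the order differ by far less than the spread between cells. Its neighbours by number were chromosome 5 at 38.4% ± 8.63, which it surpassed in 48 of 118 cells, and chromosome 7 at 35.9% ± 8.65, which it surpassed in 68 of 118.

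The arms of chromosome 6 differed from each other far more than the whole chromosome differed from chromosomes 5 and 7. Arm shares of chromosomes 5 and 7 are not given, so the wide arm difference is not shown to be particular to chromosome 6. The long arm was in contact over 45.1% ± 9.63 of its bins, with 13.7% in cell 61, a median of 46.5% and 65.6% in cell 77. The short arm was in contact over 22.8% ± 6.91, with 3.24% in cell 37, a median of 24.0% and 37.9% in cell 100. The ranges of the arms overlap across cells, but inside a cell 6q was above 6p in 117 of 118 cells, by 22.3 ± 7.05 points on average. The exception was cell 69, at −1.39 points, and the widest difference was 39.9 points in cell 50. In cells 1 to 94 the shares were 21.7% on 6p and 44.6% on 6q. In cells 96 to 124 they were 26.7% and 47.0%. Between the arms the mean ratio differed in the same direction as the shares, at 0.662 ± 0.189 on 6p and 1.26 ± 0.275 on 6q. Between the sets it did so on 6p only, with 0.646 in cells 1 to 94 and 0.713 in cells 96 to 124. On 6q the ratio was lower in the later set, 1.14 against 1.30, though the share was higher. The bins without any read averaged 54.7% on 6p and 31.9% on 6q.

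**Figure D1:**
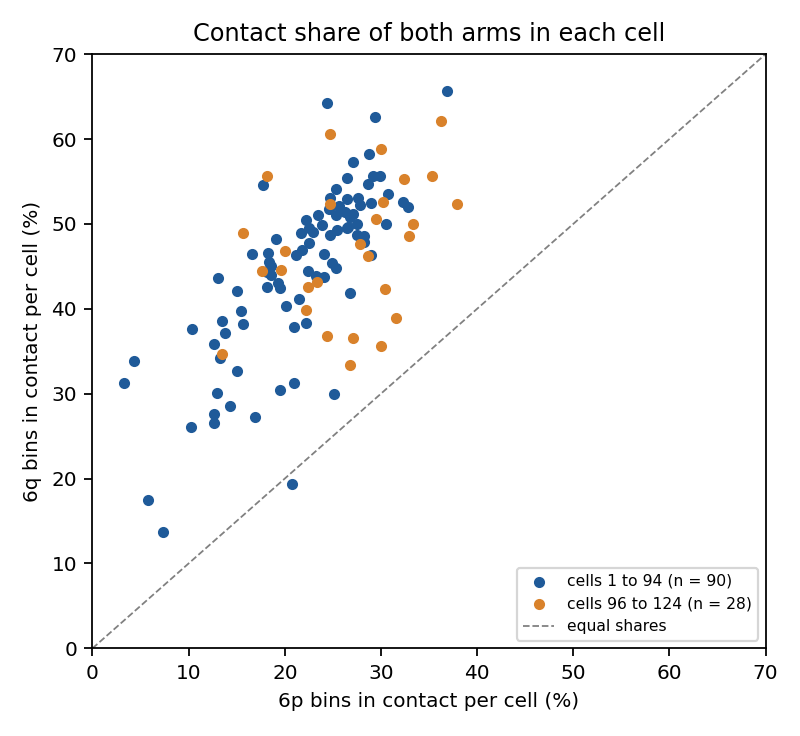
Each point is 1 cell, with the contact share of 6p (percent of bins in contact) on the horizontal axis and that of 6q on the vertical axis; blue marks cells 1 to 94 (n = 90), orange cells 96 to 124 (n = 28), and the dashed line equal shares. In 117 of 118 cells the point lies above the line, with 6q ahead by 22.3 points on average.

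A few cells had unusual amounts of signal on chromosome 6 or on 1 arm. Cell 61 had a chromosome 6 mean ratio of 0.360, against 1.05 ± 0.212 over all cells, and 2.50% of its reads, against 7.10% ± 1.42. Cell 58 had the highest, with a mean ratio of 1.81 and 11.4% of reads, and its excess was on 6q (2.39) while 6p stood at 0.721. Cell 37 had a 6p mean ratio of 0.116 beside 1.32 on 6q, with 134 reads on 6p, where 92.0% of bins had no read. Cell 54 was alike, with 0.127 on 6p and 0.881 on 6q. Cell 1 had the highest 6p ratio at 1.08, with 1.01 on 6q. Its arms had contact shares of 25.1% and 30.0%. Fewer contacts on an arm and a lost or poorly amplified arm give the same low values and cannot be told apart here. Without cells 1, 37, 58 and 61, a choice made after the values were seen, the contact shares were 37.8% ± 7.68 on chromosome 6, 23.2% ± 6.61 on 6p and 45.7% ± 9.12 on 6q (n = 114).

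After the contact share of all other chromosomes had been removed from each arm by regression, both arms still varied together over the 118 cells (Pearson's r = 0.442, Spearman's rho = 0.423). The points share library and depth, and no p is given. Without cells 37 and 54, which lie farthest from the 6p median, r was 0.400 (n = 116), and with reads per cell removed as well it was 0.441. Cells 1 to 94 alone gave r = 0.605 and cells 96 to 124 alone 0.0795, a difference that was not tested. Without removing the contact share, r was 0.683. The same measure was 0.302 on chromosome 5, where it fell to 0.126 without cells 45 and 119, and 0.530 on chromosome 7, where it was 0.445 without cells 9 and 108. In these chromosomes the set of cells 96 to 124 had the higher r, with 0.504 against 0.0263 on chromosome 5 and 0.721 against 0.435 on chromosome 7. That set holds cell 119, with a contact share of 0% on chromosome 5, and cell 108, the lowest on chromosome 7 at 12.1%. The r of the set without these cells is not given, so the higher r is not shown to be a trait of the whole set. Chromosome 6 itself deviated from the regression on the other chromosomes with an SD of 5.53 points. Cell 54 was lowest at −18.2 points and cell 83 was highest at 11.8 points.

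Bins were sorted by contact frequency. On chromosome 6, 334 bins (19.9%, 33.4 Mb) were in contact in at least 80% of cells, against 15.1% of all usable bins of the genome. A further 582 bins (34.7%) lay at 20 to under 80%, against 33.9%. Another 466 (27.8%) lay above 0 and under 20%, against 28.8%, and 295 (17.6%) were never in contact, against 22.3%. So chromosome 6 had a larger share of frequent bins and a smaller share of bins at 0 than the genome, with the intermediate class close to it. Chromosome 5 had 17.4%, 38.7%, 27.8% and 16.0% of its bins in these classes, and chromosome 7 had 16.5%, 37.7%, 28.5% and 17.3%. The frequent bins held 45.8% of all contacts on chromosome 6 and the intermediate bins 50.1%. A bin at 0 of 118 cells may still be in contact in up to 2.54% of cells (3 counts), or 3.08% by the exact interval, for counting error alone.

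The excess of frequent bins lay on 6q. There 265 of 1091 bins (24.3%) reached 80% of cells and 120 (11.0%) were at 0. On 6p, 69 of 586 (11.8%) reached 80% and 175 (29.9%) were at 0. Bins in contact in at most 5% of cells made up 52.2% of 6p and 24.8% of 6q, against 38.8% of usable bins. The 6p arm lay below the genome in frequent bins and above it in rare ones, and 6q the other way round. At 90% of cells or more there were 41 bins on 6q (3.76%) and 8 on 6p (1.37%), against 1.94% of usable bins. Once in contact, frequent bins also carried more signal. The median over bins of the ratio in cells in contact was 2.50 for bins at 80% or more, 1.95 for intermediate bins and 1.44 for bins under 20% that had at least 5 cells in contact. The values of 6p (2.56, 1.88 and 1.43) and 6q (2.49, 1.98 and 1.45) lay close together, and those of the other chromosomes were 2.50, 1.99 and 1.45. Since a contact is called on the same ratio, this is a description of the values.

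**Figure D2:**
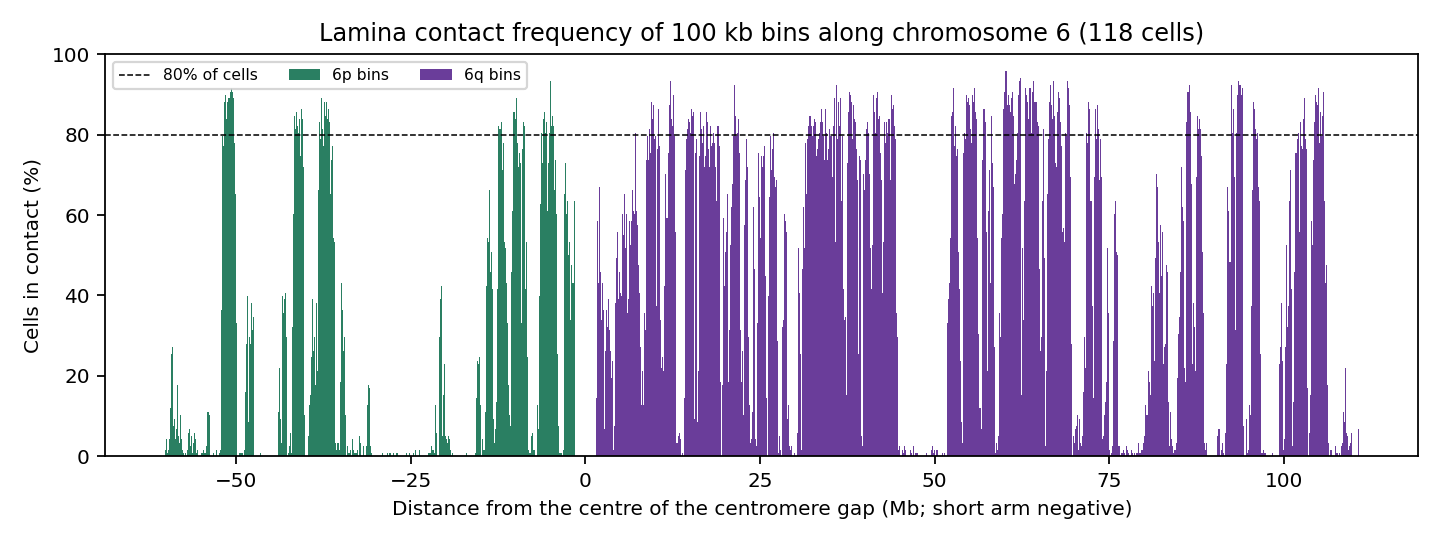
Contact frequency (percent of 118 cells in contact, vertical axis) of each 100 kb bin, drawn by its distance in Mb from the centre of the centromere gap, with 6p at negative distances in green and 6q in purple; the dashed line marks 80% of cells. Frequent bins form separate blocks on 6p, 11.8% of its bins, and a denser series on 6q, 24.3% of its bins.

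Over 5 Mb windows the long arm held the most contact. The window from 120 to 125 Mb was in contact over 81.3% ± 15.6 of its bins, from 24.0% in the lowest cell to 98.0% in the highest. It was followed by 100 to 105 Mb at 74.2%, 95 to 100 Mb at 71.3%, 75 to 80 Mb at 69.8%, 125 to 130 Mb at 66.7% and 90 to 95 Mb at 61.9%. These 6 of the 35 windows were above 60%, and all lie on 6q. At the other end were 7 windows under 10%. Of these, 5 lie on 6p: 30 to 35 Mb at 0.169%, 40 to 45 Mb at 2.98%, 35 to 40 Mb at 4.00%, 0 to 5 Mb at 5.91% and 25 to 30 Mb at 7.51%. The 2 on 6q are 105 to 110 Mb at 0.780% and the 10 bins beyond 170 Mb at 0.932%. The windows at 100 to 105 and 105 to 110 Mb are neighbours and stand at opposite ends of this order. The first was over 50% in contact in 104 cells, and the second had no contact at all in 93 cells.

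The bins most often in contact were chr6:120400001-120500000 and chr6:120500001-120600000, each in contact in 113 of 118 cells (95.8%, exact 95% interval 90.4 to 98.6%, counting error only). On 6p the highest was chr6:9800001-9900000, in 112 cells (94.9%). The intervals of the highest bins overlap, so their order is not resolved. These 3 bins lie inside the longest unbroken stretches of frequent bins, which were named by length on each arm.

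On 6p the longest such stretch, chr6:8500001-10000000 (1.5 Mb), was in contact over 89.7% ± 20.3 of its length. It was fully in contact in 74 cells, over 50% in 110, and without contact in 1. The next were chr6:18600001-19500000 at 83.1% ± 30.4, chr6:22900001-23700000 at 85.5% ± 25.7 and chr6:55100001-55800000 at 85.2% ± 25.9. The last of these is where BMP5, a secreted growth factor of the bone morphogenetic protein family, is placed on general maps. In each of these stretches the median cell was fully in contact, and the SD came from a tail of cells with little contact. In the last 3 of them, 7, 4 and 7 cells had none.

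On 6q a pair of stretches shared the greatest length. The first, chr6:120100001-121600000 (1.5 Mb), reached 88.4% ± 15.8. No cell lacked contact there, 115 cells were above 50%, and the lowest cell stood at 6.67%. The second, chr6:123700001-125200000 (1.5 Mb), the place of NKAIN2, a long gene for a membrane protein, reached 87.8% ± 21.1. The third, chr6:101400001-102500000 (1.1 Mb), holds most of GRIK2, a kainate-type glutamate receptor subunit of neurons, and reached 86.7% ± 20.1. It was higher in cells 1 to 94 (89.2%) than in cells 96 to 124 (78.6%), by less than the spread between cells. The fourth, chr6:153500001-154400000 (0.9 Mb), reached 90.0% ± 19.5. The fifth, chr6:72200001-73000000 (0.8 Mb), overlaps RIMS1, which acts in neurotransmitter release, and reached 86.2% ± 25.4. In all there were 15 stretches of frequent bins on 6p and 79 on 6q, with a median length of 0.3 and 0.2 Mb. Of these, 1 on 6p and 3 on 6q were 1 Mb or longer.

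The longest stretch of rare bins (at most 5% of cells) lay on 6p, at chr6:29500001-38800000 (9.3 Mb), and was in contact over 0.392% ± 1.34 of its length. In 96 cells it had no contact, and the highest cell reached 11.8%. It holds nearly all of the MHC. The next on 6p were chr6:40800001-44700000 (3.9 Mb, 0.326% ± 1.09), the place of CCND3, a cyclin of the entry into S phase, and VEGFA, an angiogenic growth factor, and chr6:12900001-16300000 (3.4 Mb, 0.0997% ± 0.535), the place of CD83, a dendritic-cell surface protein, and JARID2, a partner of Polycomb repressive complex 2. In the latter no cell of set 1 to 94 had a contact, and cells 96 to 124 averaged 0.420%. The fourth, chr6:6500001-8100000 (1.6 Mb, 0.477% ± 2.19), holds RREB1, a zinc-finger transcription factor, DSP, a desmosome protein, and BMP6, a growth factor that acts on iron balance. It ends 0.4 Mb before the longest frequent stretch of the arm begins.

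On 6q the longest was chr6:105100001-112000000 (6.9 Mb, 0.663% ± 2.05), without contact in 95 cells and at most 17.4% in contact in a cell. It is where PRDM1, a repressor that drives plasma-cell differentiation, and FOXO3, a forkhead transcription factor, lie. It was followed by chr6:136600001-140300000 (3.7 Mb, 1.28% ± 5.32), the place of TNFAIP3, an inhibitor of NF-kappaB signalling, and CITED2, a transcriptional coregulator. There 98 cells had no contact, while 1 cell had 51.4% of the stretch in contact. The third was chr6:157000001-159600000 (2.6 Mb, 0.261% ± 1.09), with ARID1B, a chromatin remodelling subunit, and EZR, a linker of membrane and actin. The fourth was chr6:166600001-168800000 (2.2 Mb, 1.00% ± 2.73). Rare stretches numbered 29 on 6p and 37 on 6q. These gene names are background from general maps, chosen after the values were seen. No hg19 annotation was used, and 26 of 26 names given here and below were found on chromosome 6 of the RefSeq table of GRCh38.p14, in the same order as the regions.

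The histone cluster and the MHC, both on 6p, fall in this poorly contacted part. The window from 26 to 28 Mb, which takes in the large histone gene cluster (H1-1, H2BC3, H4C3), was in contact over 1.92% ± 5.99 of its bins. It had no contact in 91 cells and 17 of 19 bins at 5% or less, while the highest cell reached 57.9%. The window from 29 to 34 Mb, around the MHC (TNF, HLA-DRA, HLA-DPB1), was in contact over 1.73% ± 3.04, and 35 of its 50 bins were never in contact. The 5 bins above 5% of cells lie in a row, chr6:29000001-29500000, at 12.7%, 22.0%, 17.8%, 16.9% and 6.78%. They lie where general maps place olfactory receptor genes (OR2W1, OR12D3) beside the MHC class I genes such as HLA-F. All 10 bins from 30 to 31 Mb were at 0, and the means of the following 1 Mb windows up to 34 Mb were 0.169%, 0.339% and 0.169%. On the outer side, 24 to 25 and 25 to 26 Mb averaged 27.5% and 24.2%. Values without reads made up 83.0% of the MHC window and 75.4% of the histone window. The part of low coverage in these values was not tested.

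Bins in contact in 40 to under 60% of cells numbered 145 (8.65%, against 8.81% of usable bins) and formed short stretches. The longest on 6q, chr6:142300001-143000000 (0.7 Mb), was in contact over 49.6% ± 37.6. It had no contact in 25 cells, was above 50% in 63 and had a smaller part in contact in 30. Its mean was 52.5% in cells 1 to 94 against 40.3% in the later set. On 6p the stretches chr6:46100001-46500000 and chr6:46600001-47000000 were equally long (0.4 Mb). The former was in contact over 50.2% ± 40.8 and the latter over 48.3% ± 40.7. The former had no contact in 34 cells, was above 50% in 52 and had a smaller part in contact in 32. In chr6:66500001-66900000 on 6q (0.4 Mb, 55.5% ± 40.4) the counts were 29, 62 and 27. These SDs are wider than in the frequent stretches, with cells spread over the whole range and many at each end. The stretches were chosen by contact frequency, and a share near 50% has more room to vary than one near its upper limit. Part of the wider spread therefore follows from the choice.

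**Figure D3:**
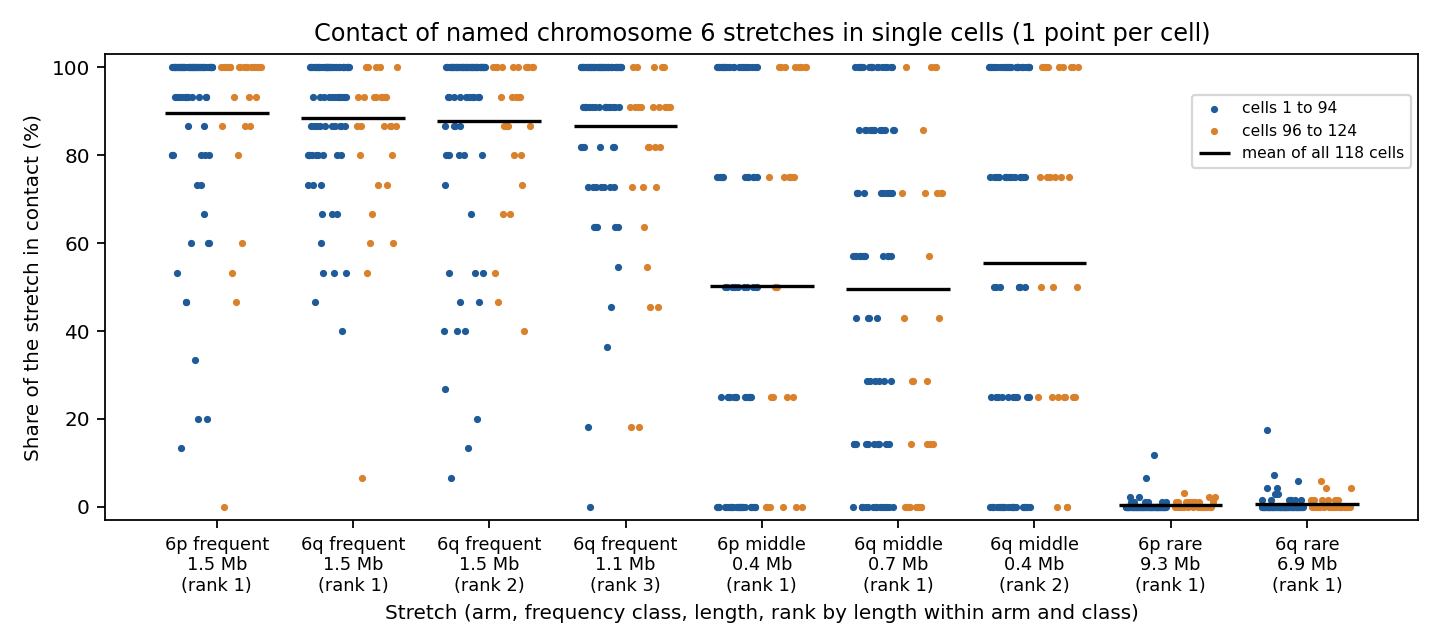
Share of 9 named stretches in contact in each cell (percent, vertical axis), 1 point per cell, blue for cells 1 to 94 and orange for cells 96 to 124, with the mean of 118 cells as a bar; stretches are ordered as frequent, middle and rare and labelled by arm, length and rank. Frequent stretches have most cells near 100% with a tail downwards, middle stretches have cells at every level, and the rare ones of 9.3 and 6.9 Mb stay near 0.

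Some borders between high and low bins fell between the same bins in many cells. The steps below were named for their size, so a high count of cells on 1 side alone follows from the choice. On 6q, contact frequency rose from 3.39% at chr6:114200001-114300000 to 71.2% in the next bin. In 80 cells the second bin was in contact without the first, and in 0 cells the first without the second. On 6p it fell from 72.0% at chr6:19900001-20000000 to 10.2% in the next bin, with 73 cells in contact on the left alone and 0 on the right alone. The bin chr6:122600001-122700000 stood at 87.3% and the next at 15.3%, with 87 cells in contact in the first alone and 2 in the second alone. Frequency rose again to 51.7% in the bin after these, so this fall did not border a long low region. The median was 12 reads in the first bin and 2 in the second, and the part of low coverage was not tested. The largest step was the fall into the bin chr6:75900001-76000000, which was in contact in 9.32% of cells between neighbours at 87.3% and 75.4%. Both neighbours were in contact in 84 cells, and 73 of these lacked the bin. Its median was 1 read, with no read in 42 cells, and the part of its low coverage in the result was not tested. Steps of at least 50 points were found at 16 of 1673 neighbour pairs (0.956%), against 1.02% of pairs over all usable bins, and the median step was 3.39 points in both.

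Toward the chromosome ends contact was low. Bins under 2 Mb from the outermost usable bins were in contact in 6.65% ± 9.93, those at 2 to under 10 Mb in 33.8% ± 9.23 and those at 10 Mb or more in 38.6% ± 8.47. The 6p end had 9.53% ± 15.4, with 66 cells without contact, and the 6q end 3.77% ± 7.71, with 76 cells without contact. At both ends together cells 96 to 124 averaged 14.9% and cells 1 to 94 averaged 4.08%. The outermost 5 Mb of 6p differed in the same direction, at 13.8% and 3.45%. In cell 100, the deepest, the 6p end reached 70.0%.

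Beside the centromere gap contact was intermediate. Bins under 2 Mb from the gap were in contact in 39.6% ± 21.0, those at 2 to under 10 Mb in 49.7% ± 14.2 and those farther away in 36.0% ± 7.95. On 6p these values were 40.3%, 49.4% and 17.8%, so the arm was in contact more often in the 10 Mb nearest the gap than beyond them. On 6q they were 39.0%, 50.1% and 44.9%, so the value beyond 10 Mb lay between those of the nearer zones. The 6q flank varied over cells more than any other of these zones, at ± 29.4, with 0 in 9 cells and 100.0% in the highest. Both flanks were over 50% in contact in 19 cells, the 6p flank alone in 16, the 6q flank alone in 20 and neither in 63. With the share of other chromosomes removed, the flanks correlated over cells with r = 0.525 and rho = 0.545 (n = 118, from the same libraries), and within the sets r was 0.515 and 0.563.

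Contacts came in runs, meaning consecutive usable bins in contact on an arm. A cell had 125 ± 24.0 runs on chromosome 6 with a mean length of 0.516 ± 0.142 Mb, from 0.221 Mb in cell 73, which has 1233 chromosome 6 reads, to 0.899 Mb in cell 50. Runs of at least 1 Mb held 51.2% ± 15.0 of the contact bins, and single bins held 7.79% ± 4.34. The mean run was 0.467 ± 0.140 Mb on 6p and 0.534 ± 0.155 Mb on 6q, so the arms differed less in run length than in contact share. Cells 96 to 124 had more runs (146 against 118 in cells 1 to 94) that were shorter (0.468 against 0.530 Mb).

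The longest run of a cell measured 3.16 ± 0.989 Mb and lay on 6q in 103 cells and on 6p in 15. It fell in the same places in many cells. In 35 cells it held the bin chr6:93100001-93200000, with runs of 2.5 to 4.4 Mb (median 3.90 Mb) between 91300001 and 95700000. The stretch chr6:91700001-95700000, bounded by the median start and end of these runs, was in contact over 80.1% ± 21.0 of its 40 bins, and was in contact throughout in 14 cells. Its mean was 82.4% in cells 1 to 94, against 72.7% in the other set. Its right border is the bin without reads in any cell at 95700001, so longer runs there could not be seen. The longest run centred between 120 and 125 Mb in 19 cells and between 100 and 105 Mb in 12. The longest of all, 9.0 Mb at chr6:121000001-130000000, was in cell 83. The next longest were 5.1 Mb in cells 78 and 100.

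Contacts of nearby bins coincided over cells. Among the 582 intermediate bins, with the contact share of the other chromosomes removed, pairs of adjacent bins had a mean r over cells of 0.420 (0.438 on 6p and 0.415 on 6q). The mean fell to 0.255 at 0.6 to 1 Mb, 0.124 at 2.1 to 5 Mb, 0.0662 at 10.1 to 20 Mb and 0.0290 beyond 50 Mb. Pairs across the centromere gap had 0.171 at 2.1 to 5 Mb and 0.110 at 5.1 to 10 Mb, against 0.121 and 0.0770 for pairs within 6q. At these distances pairs across the gap were not below pairs within 6q. Chromosomes 5 and 7 had 0.466 and 0.469 for adjacent bins and 0.165 each at 2.1 to 5 Mb. With each cell thinned to 50000 reads (109 cells), adjacent chromosome 6 bins had 0.309.

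**Figure D4:**
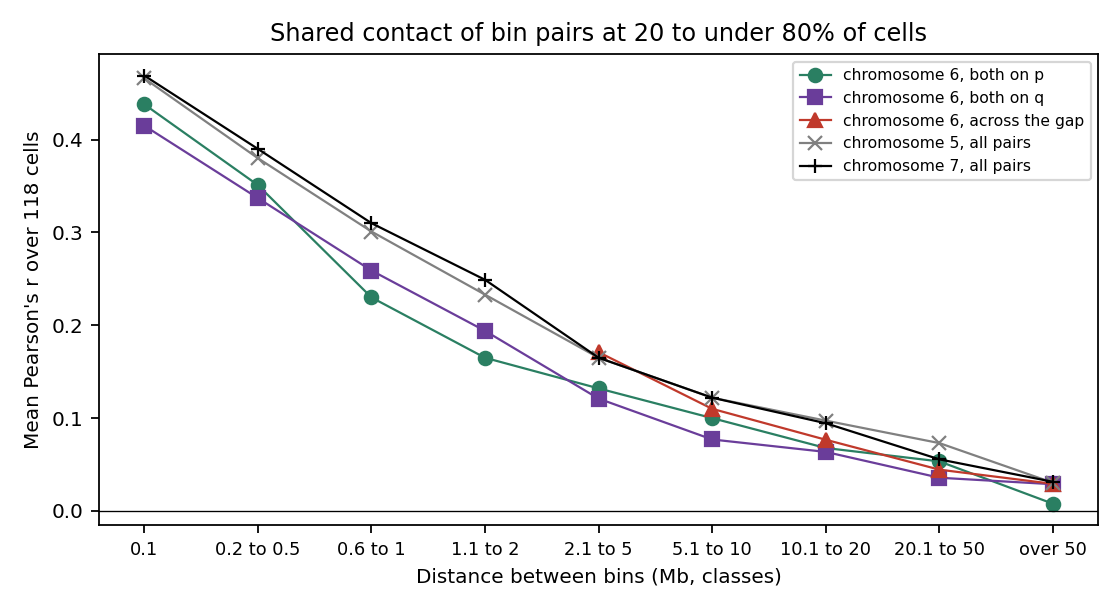
Mean Pearson's r over 118 cells between the contacts of 2 bins (vertical axis) by their distance (horizontal axis, classes in Mb), for intermediate bins of chromosome 6 within 6p, within 6q and across the gap, and for all pairs of chromosomes 5 and 7. All lines fall with distance, to at most 0.0314 beyond 50 Mb; those within an arm or over all pairs start at 0.415 to 0.469 for adjacent bins, and the line across the gap starts at 0.171 at 2.1 to 5 Mb.

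Among 5 Mb windows with a mean of 20 to under 80%, 25 in number, 279 of 300 pairs had r above 0 over cells. Adjacent windows had r from 0.335 to 0.642 (median 0.459, 19 pairs), and pairs across the gap had a median of 0.150 (109 of 114 above 0 over all 118 cells). The adjacent pairs include the pair of windows on either side of the gap, which counts in both groups. The highest pair was 50 to 55 with 55 to 60 Mb on 6p. The windows on either side of the gap, 55 to 60 Mb on 6p and 60 to 65 Mb on 6q, had r = 0.458 (0.454 and 0.435 in the sets). The pair of 6p 55 to 60 Mb with 6q 75 to 80 Mb stood at 0.494, but at −0.0139 in cells 96 to 124 alone, beside 0.577 in cells 1 to 94. The lowest pair was 6q 90 to 95 with 165 to 170 Mb, at −0.201. In cells 96 to 124 alone many pairs across the gap were below 0. The lowest of those was 6p 20 to 25 with 6q 145 to 150 Mb, at −0.570, beside 0.220 in cells 1 to 94. All these correlations are over the same 118 cells and describe them.

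Both sets of cells showed a similar profile along the chromosome. Their contact frequencies correlated with r = 0.952 across the 1677 bins (0.960 on 6p and 0.944 on 6q), a correlation across bins, which are not independent. Of the bins at 80% or more, 336 in cells 1 to 94 and 322 in cells 96 to 124, 231 were in both sets (68.8% of the first and 71.7% of the second). These bins made up 20.0% and 19.2% of chromosome 6. The same overlap over all usable bins is not given, so it is not shown to be particular to chromosome 6. Mean frequency over the frequent bins was 86.2% in the earlier-numbered and 85.4% in the later-numbered cells. It was 52.5% and 58.5% over the intermediate bins and 4.21% and 9.43% over bins above 0 and under 20%. The sets thus differed most, relative to the level, where contact was rare.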

How the data were processed

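Single-cell LaminB1 DamID of 118 KBM7 clone 14 cells was analysed from 1 deposited table of observed over expected ratios per 100 kb bin and cell. Per the submitters' processing notes, cutadapt and Bowtie2 2.1.0 were used with hg19. How the authors derived the expected part of the deposited ratio is not given in sources used here. All 1697706 values above 0 (100%) were whole multiples of the value of 1 read (tolerance 0.02 reads), which gave reads per bin and cell. Contact was a ratio of at least 1.

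Contact shares, frequencies, runs and correlations were computed with Python 3.11.15, numpy 2.4.6, pandas 2.3.3 and scipy 1.17.1, and drawn with matplotlib 3.10.9. Only read recovery, the finding of runs and the removal of a shared covariate by regression were tested beforehand on simulated or constructed data. Runs and stretches end at the centromere gap and at left-out bins. For each arm the longest stretches at 80% or more, at 5% or less and at 40 to under 60%, the highest bins and the largest steps were named. Intervals are exact (Clopper-Pearson, 95%). With 1 group of cells and no named cultures, no test was made. Members, lists and rules were chosen with earlier results of these data known. The alternatives tried were other contact values, limits and distances, fewer cells, thinned reads, bins at 0 kept, bridged runs and other adjustments of correlations. Bins of hg19 could not be joined to the RefSeq table of GRCh38.p14, so the planned contact frequencies of gene groups were not computed and no bin sequence is shown.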

Additional observations from a re-analysis of the deposited data

How the results depend on the processing

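Over 15 results and 14 alternatives, 133 values were computed, of which 108 stayed close to the reported one (within 1 SD between cells, 1.5 times for counts of bins or 0.1 for r) and 25 did not. No direction turned. The limit of 1 SD is wide where cells vary much. The chromosome ends, at 6.65%, counted as close at 14.7% (contact value 0.5) and 1.55% (contact value 2). So did the centromere flanks, 39.6% against 23.1% at a contact value of 2, and the mean run, 0.516 against 0.383 Mb after thinning. A contact value of 0.5 gave contact shares of 46.8% on chromosome 6, 30.2% on 6p and 55.7% on 6q, 545 bins at 80% or more, 60 bins at 0%, a mean run of 0.671 Mb and 66.2% of contacts in runs of 1 Mb or more. A contact value of 2 gave 21.6%, 12.7% and 26.3%, a difference of 6q and 6p of 13.7 points, 2 and 533 bins, 0.273 Mb and 15.7%. Thinning to 50000 reads gave 199 bins at 80% or more, 172 at 0%, 35.2% of contacts in runs of 1 Mb or more and r = 0.309 for adjacent bins. Bridging gaps of 1 bin gave runs of 0.949 Mb and 75.2%, which follows from joining runs, and a limit of 90% left 49 bins. The correlation of the arms was 0.605 in cells 1 to 94, 0.0795 in cells 96 to 124 and 0.683 with no removal of the contact share. For the other changes the cause was not tested. Counts of bins at 80% or at 0% of cells and the share of contacts in long runs thus depend on the contact value and on depth, while the mean of 6q stayed above that of 6p under each alternative run. In the shallowest cells a ratio of 1 is near 1 read. Gene groups were not run. No analysis paired by replicate number across groups was possible because there is 1 group.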
